A study of Mus musculus with 4 samples.

Results

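Interferon-high CD8 T cells were taken as the 6% of cells with the highest levels of 6 interferon-stimulated genes, 586 of 9770 cells. They came from single-cell RNA libraries of CD8 T cells that had been sorted by flow cytometry for CD44, a marker of antigen experience, and CD90.1 from lymph nodes draining a tumour in C57BL/6 mice, 14 days after implantation. The labels give 2 groups of 2 libraries. C6M9 carries the label low affinity GP33 and M9 the label high affinity GP33, where GP33 is a viral peptide seen by CD8 T cells. Neither name is explained further, nor is the tumour line, and mice were pooled (35 for the C6M9 group and 10 for M9), with no record of which cell came from which mouse. The series title names its subject as progenitor exhausted CD8 T cells and the engagement of their T cell receptor (TCR).

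Cells entered the choice with at least 500 genes, at least 1000 unique molecular identifiers (UMIs, each standing for a counted RNA molecule) and at most 10% mitochondrial UMIs. Cells with 2 or more UMIs of the B cell genes Cd79a and Ms4a1, or 5 or more of the granzyme genes Gzma and Gzmb, were set aside. The score of a cell was the mean of ln(1 + UMIs per 10000) over Ifit1, Ifit3, Ifit3b, Rsad2, Isg15 and Usp18. The cut fell at a score of 0.767 on this scale, and the cells run through it without a gap: 101 interferon-high cells lay within 0.1 above it and 123 of the remaining 9184 cells within 0.1 below it. The class is a range of a graded score and not a separate type. C6M9 replicates 1 and 2 gave 189 and 123 interferon-high cells, and M9 replicates 1 and 2 gave 201 and 73. No cell barcode was shared between libraries among them.

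Type I interferons (interferon alpha and beta) bind the receptor pair encoded by Ifnar1 and Ifnar2 and activate the kinases JAK1 and TYK2, whose signal assembles the complex ISGF3, which binds the interferon-stimulated response element (ISRE) in the promoters of antiviral genes. Interferon gamma acts mainly at a different element, the gamma activated site (GAS). In T cells type I interferon is known both to restrain proliferation and to act as a costimulus, depending on when it meets TCR signals.

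Promoters of genes that chose the cells are shown because the ISRE letters stand in each one that could be read. RefSeq promoters (GRCm38.p6, 250 bases before to 50 bases after the start site) were matched for 5 of the 6 score genes, Usp18 being named only, and for Slfn5, a further marker of the state. Each but that of Ifit3b is printed 5′ to 3′ in the direction of transcription. Capitals mark the 10-letter core GAAANNGAAA or its reverse complement TTTCNNTTTC.
Ifit1 (chr19:34640639-34640938, plus strand): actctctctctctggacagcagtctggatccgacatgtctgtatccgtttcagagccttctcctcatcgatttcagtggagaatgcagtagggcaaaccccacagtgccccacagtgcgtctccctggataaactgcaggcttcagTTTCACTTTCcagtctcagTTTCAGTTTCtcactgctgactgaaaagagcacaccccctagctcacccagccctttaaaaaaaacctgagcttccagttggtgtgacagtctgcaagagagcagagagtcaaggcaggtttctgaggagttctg
Ifit3 (chr19:34583279-34583578, plus strand): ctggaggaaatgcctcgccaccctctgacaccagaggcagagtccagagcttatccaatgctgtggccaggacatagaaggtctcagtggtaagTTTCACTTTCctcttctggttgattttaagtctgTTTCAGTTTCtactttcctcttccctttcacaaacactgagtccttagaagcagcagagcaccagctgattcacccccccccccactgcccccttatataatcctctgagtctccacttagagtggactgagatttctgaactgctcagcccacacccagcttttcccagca
Rsad2 (chr12:26456403-26456702, minus strand): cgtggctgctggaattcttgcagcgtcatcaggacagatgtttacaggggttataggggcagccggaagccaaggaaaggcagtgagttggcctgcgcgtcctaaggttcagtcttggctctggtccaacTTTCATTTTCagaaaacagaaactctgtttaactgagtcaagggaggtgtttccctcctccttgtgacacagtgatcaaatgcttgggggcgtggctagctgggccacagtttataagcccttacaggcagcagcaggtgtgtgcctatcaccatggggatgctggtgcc
Isg15 (chr4:156200769-156201068, minus strand): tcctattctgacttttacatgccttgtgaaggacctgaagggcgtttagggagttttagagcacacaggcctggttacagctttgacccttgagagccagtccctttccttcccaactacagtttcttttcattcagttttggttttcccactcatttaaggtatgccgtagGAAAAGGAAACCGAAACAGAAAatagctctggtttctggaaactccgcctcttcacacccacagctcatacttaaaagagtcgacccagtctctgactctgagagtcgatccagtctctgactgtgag
Slfn5 (chr11:82951852-82952151, plus strand): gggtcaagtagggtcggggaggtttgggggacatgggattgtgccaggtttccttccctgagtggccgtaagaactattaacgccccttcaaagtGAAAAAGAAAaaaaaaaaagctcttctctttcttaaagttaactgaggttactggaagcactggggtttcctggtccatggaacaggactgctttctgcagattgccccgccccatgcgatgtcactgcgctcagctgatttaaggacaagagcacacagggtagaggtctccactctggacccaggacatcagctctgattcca

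The Ifit1 promoter held 2 cores, which began 104 and 85 bases before the start site. Ifit3 held 2, at 156 and 122 bases before it, and its neighbour Ifit3b held the same pair at 188 and 154 bases. Isg15 held 3 cores that overlap one another, at 78, 72 and 66 bases before the start site, while Rsad2 and Slfn5 held 1 each, at 120 and 155 bases. The core was found in all 5 score genes matched, against 3.44% of all 32851 RefSeq promoters and 3.99% of all genes with a promoter. Of the 23 further interferon genes listed and held out of the score, 22 of which are analysed here, 16 matched a promoter. Of these 16, 9 held the core, 56.2%. Among interferon-inducible GTPases 10 of 11 matched genes held it and among PYHIN genes 9 of 11, whereas 1 of 30 S phase genes and 1 of 45 G2 and M phase genes did. The GAS letters TTCNNNGAA, which are their own reverse complement, stood in none of the 5 score genes and in 6 of the 11 GTPase genes, against 8.3% of all promoters and 9.55% of all genes with a promoter. These are matches of letters, not evidence of binding.

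The 6 genes that chose the cells are given as a description, with no test. Ifit1, which encodes a protein that binds foreign RNA, reached 455 and 441 in C6M9 and 451 and 476 in M9 interferon-high cells, against 22.4 and 24.3 in C6M9 and 11.2 and 14.8 in M9 remaining cells. Ifit3, a gene of the same family, reached 515 and 491 in C6M9 and 659 and 690.1 in M9 interferon-high cells, against 22.5 and 28.4 in C6M9 and 13.7 and 20 in M9 remaining cells. All levels are CPM, UMI counts as a share of the sum's total on the usual scale, adjusted by edgeR's TMM factors. Sums over gene lists, score bins and all libraries carry no TMM factor. Rsad2 encodes viperin, an enzyme that makes a chain-terminating nucleotide, and stood at 198 and 158 in C6M9 and 206 and 283 in M9 interferon-high cells, against 3.96 and 5.29 in C6M9 and 3.58 and 3.89 in M9 remaining cells. Isg15, a ubiquitin-like modifier, had 667 and 621 in C6M9 and 712 and 689.5 in M9 interferon-high cells, against 39.6 and 46.2 in C6M9 and 29.4 and 34.8 in M9 remaining cells. Usp18, which removes ISG15 from proteins and damps receptor signalling, had 166 and 162 in C6M9 and 156 and 190.1 in M9 interferon-high cells, against 11.2 and 13.9 in C6M9 and 5.5 and 6.73 in M9 remaining cells. Ifit3b stood at 117 and 118 in C6M9 and 134 and 170.4 in M9 interferon-high cells, against 4.4 and 5.74 in C6M9 and 2.86 and 4.13 in M9 remaining cells, but it is a near copy of Ifit3 and UMIs may be exchanged between them. Every interferon-high sum lay above every remaining sum, as the choice of cells requires.

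**Figure D1:**
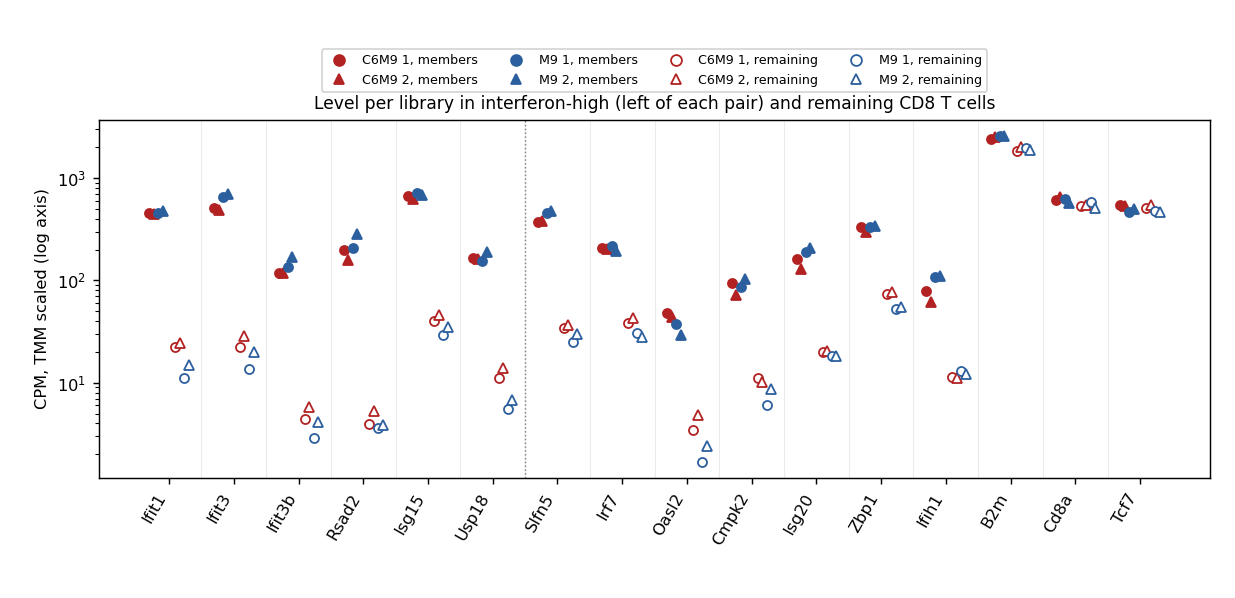
Level of 16 genes in CPM (TMM scaled, log axis) in the summed interferon-high cells (filled) and remaining cells (open) of each library, with C6M9 in red and M9 in blue. The 6 genes left of the dotted line chose the cells; Slfn5 to Ifih1 were not used and also lie higher in all 4 libraries, while Tcf7 lies at 542, 531, 470.5 and 499 in interferon-high cells against 507, 543, 473 and 464 in the remaining cells.

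These 586 cells held 52.2% and 49.7% of all UMIs of the 6 genes in C6M9 replicates 1 and 2, and 59% and 59.6% in M9 replicates 1 and 2. Of the remaining cells, 50.9% and 41.8% in C6M9 and 62.6% and 48.7% in M9 had no UMI of any of the 6 genes. In the median interferon-high cell 5 of the 6 genes were seen, and all 6 were seen in 48.5% of the cells, against 0.893% of the remaining cells. Interferon-high cells were somewhat shallower, with a median of 13246 UMIs and 3149 genes per cell against 15199 UMIs and 3489 genes in the remaining cells. Their mitochondrial share was 4.22% against 4.19%. When every cell was thinned to 2000 UMIs and scored again, 78.2% of the interferon-high cells were chosen again. When the score was taken over the held-out interferon genes in place of the 6, 71.5% were.

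The label of the cells was checked against marker genes. Cd8a reached 603 and 655 in C6M9 and 622 and 567 in M9 interferon-high cells, against 538 and 539 in C6M9 and 580.4 and 508 in M9 remaining cells, and Cd8b1 1335 and 1271 in C6M9 and 1207 and 1163 in M9 interferon-high cells, against 1123 and 1087 in C6M9 and 968 and 892 in M9 remaining cells. Cd3d was seen in all 586 interferon-high cells, against 9167 of the 9184 remaining cells. Slfn5, the marker that the score did not use, was 13.4-fold higher on the means of the 4 libraries. Among genes that define other cells, Csf1r, Ncr1, Siglech, Clec9a, S100a8, S100a9, Hba-a1 and Hbb-bs (haemoglobin) had 0 UMIs in the interferon-high cells, and Foxp3 had 1 UMI. S100a8, S100a9 and Hba-a1 had none in the remaining cells either. The others of these were at 1.555 CPM or less there, so these zeros do not tell the classes apart. Other myeloid markers were present. Cst3 had 69.9 and 66.7 in C6M9 and 73.6 and 52.3 in M9, against 77.8 and 79.7 in C6M9 and 78.9 and 64.2 in M9 remaining cells. Cd68 had 3.63 and 6.04 in C6M9 and 20.4 and 6.77 in M9, against 6.025 and 6.62 in C6M9 and 14.4 and 9.03 in M9 remaining cells. Lyz2, a myeloid gene, had 0 and 0.318 CPM in C6M9 and 0 and 6.77 in M9 interferon-high cells. In the remaining cells it had 7.58 and 4.94 in C6M9 and 0.37 and 0.153 in M9. H2-Ab1, an MHC class II gene, had 0.33 and 0.953 in C6M9 and 1.04 and 10.5 in M9 interferon-high cells. Its remaining-cell levels were 2.7 and 4.92 in C6M9 and 1.68 and 1.22 in M9. M9 replicate 2 was thus the highest interferon-high sum for both genes. The summed level of the 15 B cell markers was 366 and 378 CPM in C6M9 and 334 and 407 in M9, against 323 and 350.5 in C6M9 and 276 and 291.5 in M9 among the remaining cells. The filter on Cd79a and Ms4a1, both among the 15, limits that sum, which is mostly Ighm, a gene that T cells can transcribe in part. For 16 myeloid and dendritic cell markers the sums in interferon-high cells were 73.6 and 77.8 in C6M9 and 99.4 and 74.5 in M9, against 99.4 and 98.7 in C6M9 and 103 and 86.4 in M9 among the remaining cells. The 8 plasmacytoid dendritic cell markers summed to 403 and 432.5 in C6M9 and 454.5 and 430.3 in M9, against 133 and 136 in C6M9 and 108 and 117 in M9. That difference is Bst2, itself induced by interferon, at 397.5 against 90.5 CPM over all cells of each kind. The sums for the 7 CD4 and regulatory T cell markers were 184.5 and 202 in C6M9 and 394 and 313 in M9, against 189 and 213 in C6M9 and 423 and 398.5 in M9, and rest on Ikzf2 and Izumo1r. The 8 NK and innate lymphoid markers summed to 118 and 107 in C6M9 and 173.5 and 196 in M9, against 86.9 and 87.1 in C6M9 and 194 and 182 in M9, nearly all of it Eomes. Trdc made up most of the 3 gamma delta T cell markers analysed here, which summed to 433 and 474.5 in C6M9 and 475 and 476 in M9, against 410.0 and 426 in C6M9 and 402 and 403 in M9. Of 9 melanoma and stroma markers Pecam1 alone passed the filter on low counts in fits that hold interferon-high cells, and the sums were 72.1 and 68.9 in C6M9 and 87.6 and 91.0 in M9, against 47.8 and 56.8 in C6M9 and 62.6 and 63.3 in M9. The 8 red cell and platelet markers had no UMI in the interferon-high cells. The part of these other genes in the results below was not tested.

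The comparison of interferon-high with remaining cells asked what else these cells transcribe. Raw UMIs were summed per library over both kinds of cell and compared in edgeR with the library as a block (quasi-likelihood test, Benjamini-Hochberg adjustment over all genes at 0.05). The interferon-high sums held 3219287 and 3237190 UMIs in C6M9 and 2967775 and 1570827 in M9, against 57266385 and 51757429 in C6M9 and 68985796 and 30153628 in M9 for the remaining cells. Of 11704 genes tested 2603 were called, 22.2% of the total, with 1179 higher (10.1%) and 1424 lower (12.2%). The median log2 difference over all genes was -0.01. The score genes and the 4 genes of the cell filters are left out of every list count below. Cells were chosen by interferon genes, so genes switched on together with them had to differ, and the share called is given as background only.

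Direct antiviral effectors rose broadly. Of 44 listed genes 39 were tested outside the score, 36 rose and 1 fell, with a median log2 difference of 2.08. Oasl1 and Oasl2 belong to the oligoadenylate synthetase-like family, and OASL1 is known in mice to hold back translation of IRF7. Oasl1 had 28.4 and 30.8 in C6M9 and 33.5 and 28.9 in M9 interferon-high cells, against 1.7 and 2.11 in C6M9 and 0.967 and 1.47 in M9 remaining cells, a log2 difference of 4.32 ± 0.19 (SE, adjusted p = 1.69e-12). Oasl2 stood at 48.1 and 44.2 in C6M9 and 37.7 and 29.5 in M9 interferon-high cells, against 3.43 and 4.86 in C6M9 and 1.68 and 2.42 in M9 remaining cells, a log2 difference of 3.75 ± 0.17 (SE, adjusted p = 1.86e-12). All 4 interferon-high sums of each gene lay above all 4 remaining sums. Cmpk2, a mitochondrial nucleotide kinase encoded beside Rsad2, had 94.9 and 72.1 in C6M9 and 85.7 and 102 in M9 interferon-high cells, against 11 and 10.2 in C6M9 and 6.06 and 8.66 in M9 remaining cells, a log2 difference of 3.31 ± 0.13 (SE, adjusted p = 1.66e-13). Isg20, an exonuclease that degrades RNA, had 162 and 129.6 in C6M9 and 189 and 208 in M9 interferon-high cells, against 20.2 and 20.6 in C6M9 and 18.4 and 18.2 in M9 remaining cells, a log2 difference of 3.12 ± 0.10 (SE, adjusted p = 1.79e-14). Ifit1bl1 (3.07), Parp12 (3.02), Phf11a (3.39) and Phf11b (2.58) rose as well on the log2 scale. Ifi44 had a difference of 4.94 ± 0.39 at low levels, 8.57 and 6.35 in C6M9 and 9.67 and 6.15 in M9 interferon-high cells, against 0.177 and 0.41 in C6M9 and 0.114 and 0.398 in M9 remaining cells. Ifitm1, a membrane protein that blocks viral entry, was the gene that fell, at 0.659 and 0 in C6M9 and 1.04 and 0 in M9 interferon-high cells, against 0.707 and 0.703 in C6M9 and 4.43 and 4.44 in M9 remaining cells, a log2 difference of -2.27 ± 0.57 (SE, adjusted p = 0.00675).

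Sensors of nucleic acid rose next to the effectors. Of 13 tested, 10 rose and none fell, with a median log2 difference of 2.3. Ifih1 encodes MDA5, a sensor of long double-stranded RNA, and had 78.1 and 61.3 in C6M9 and 107 and 111 in M9 interferon-high cells, against 11.4 and 11 in C6M9 and 13.1 and 12.2 in M9 remaining cells, a log2 difference of 2.87 ± 0.10 (SE, adjusted p = 6.95e-14). Ddx60, a helicase linked to that pathway, had 97.6 and 97.5 in C6M9 and 119 and 139 in M9 interferon-high cells, against 15.9 and 15.7 in C6M9 and 14.7 and 17.3 in M9 remaining cells, a log2 difference of 2.81 ± 0.08 (SE, adjusted p = 6.12e-15). Tlr3 and Tlr7, endosomal sensors of RNA, rose by log2 differences of 4.21 ± 0.45 and 3.01 ± 0.39 (SE), but at low levels: Tlr7 had 4.29 and 2.86 in C6M9 and 3.11 and 12.3 in M9 interferon-high cells, against 0.495 and 0.839 in C6M9 and 0.483 and 0.582 in M9 remaining cells. Zbp1, a sensor of Z-form nucleic acid, had 330.3 and 299 in C6M9 and 329 and 341 in M9 interferon-high cells, against 73 and 76.5 in C6M9 and 52.8 and 55.4 in M9 remaining cells.

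Gene families that interferon is known to induce moved together. All 6 Schlafen genes tested rose, with a median of 1.83, and Slfn5 had 370.2 and 377 in C6M9 and 452 and 480.4 in M9 interferon-high cells, against 33.9 and 36.4 in C6M9 and 24.9 and 30.2 in M9 remaining cells, a log2 difference of 3.74 ± 0.10 (SE, adjusted p = 2.12e-15). Of 10 PYHIN genes, which include DNA sensors, 9 rose with a median of 1.8, among them Ifi204 at 4.50 ± 0.21. All 17 GTPase genes rose (median 1.96). Iigp1, an immunity-related GTPase that attacks parasite vacuoles, had 60.3 and 48 in C6M9 and 60.8 and 135 in M9 interferon-high cells, against 6.98 and 7.85 in C6M9 and 7.63 and 7.99 in M9 remaining cells, a log2 difference of 3.20 ± 0.16 (SE, adjusted p = 8.37e-12). The M9 replicate 2 sum was the highest of the 4 for that gene. Of 12 TRIM genes 11 rose (median 1.49), among them Trim30c at 4.15 ± 0.26, and Trim5 fell by 0.47 ± 0.10. The Schlafen, PYHIN, Ifit, Trim30 and GTPase families hold close paralogs, so UMIs may be split or exchanged between members. The 4 genes of ISG15 conjugation rose, among them Ube2l6, which encodes the conjugating enzyme, at 2.68 ± 0.25.

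The antigen presentation genes rose by less. All 21 MHC class I presentation genes tested were called higher, with a median log2 difference of 0.44. H2-T23, a non-classical class I gene that presents to CD94 receptors, had 447 and 476 in C6M9 and 499 and 475 in M9 interferon-high cells, against 235 and 269 in C6M9 and 249.5 and 231 in M9 remaining cells, and Tapbp, the tapasin that loads peptide, had 268 and 260.5 in C6M9 and 279 and 309 in M9 interferon-high cells, against 137 and 150.1 in C6M9 and 137 and 139 in M9 remaining cells. Their log2 differences were 0.95 ± 0.05 and 0.98 ± 0.06. All 11 surface genes tested rose, among them Cd274, which encodes PD-L1, at 26.7 and 31.1 in C6M9 and 36.6 and 36.3 in M9 interferon-high cells, against 9.4 and 11.7 in C6M9 and 15.6 and 12.6 in M9 remaining cells, a log2 difference of 1.41 ± 0.10 (SE, adjusted p = 4e-09). Of 10 cell death genes 8 rose, with Xaf1, known to promote apoptosis, at 2.30 ± 0.09 and Tnfsf10, which encodes TRAIL, at 1.36 ± 0.09. Chemokine and MHC class II genes linked to interferon gamma divided: of 5 tested, Cxcl10 rose (2.56) and Cd74, the class II invariant chain, fell (-0.68).

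**Figure D2:**
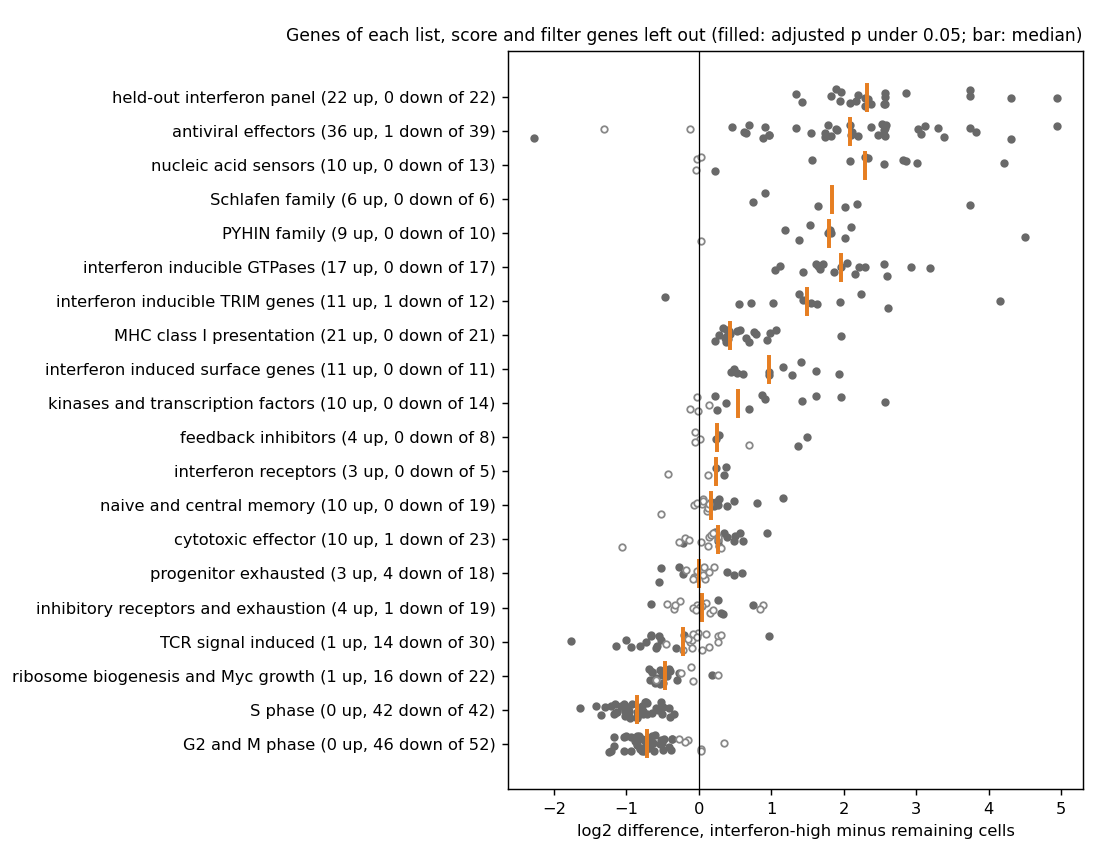
Log2 difference of interferon-high minus remaining cells for each gene of 20 lists (points; filled where the adjusted p was under 0.05, open otherwise), with the list's median as an orange bar and the 6 score genes and the filter genes left out. The medians of the interferon lists lie right of 0, at 2.32 for the held-out panel and 2.08 for antiviral effectors, and those of S phase and G2 and M phase genes lie left of it, at -0.86 and -0.71.

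The type I and type III interferon genes were not detected in interferon-high cells. Of the 14 type I and type III interferon genes analysed here, none had a UMI in the interferon-high cells. A count of 0 among all their UMIs allows up to 0.273 CPM, and 0 of 586 cells allows up to 0.512% of cells with a UMI (counting error only). Ifnk had 2 UMIs among the remaining cells and the other 13 had none. Ifng, the interferon gamma gene, had 5.27 and 22.2 in C6M9 and 51.1 and 14.2 in M9 interferon-high cells, against 6.59 and 17.2 in C6M9 and 46.3 and 12.6 in M9 remaining cells, a log2 difference of 0.16 ± 0.12 (SE, adjusted p = 0.363). The spread followed the library and not the class of cell, with M9 replicate 1 highest and C6M9 replicate 1 lowest in both.

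Receptors and the signalling chain were present in both classes. Ifnar1 had 79.4 and 68.6 in C6M9 and 77.7 and 74.4 in M9 interferon-high cells, against 57.7 and 60.5 in C6M9 and 59.5 and 57 in M9 remaining cells, a log2 difference of 0.35 ± 0.07 (SE, adjusted p = 0.00063). Ifnar2 rose by 0.23 (adjusted p = 0.0214), a call that was lost without C6M9 replicate 1, without either M9 library and in G1 cells alone. Il10rb, shared by the receptors of interferon lambda and interleukin 10, rose by 0.38 ± 0.07. Of the interferon gamma receptor genes, Ifngr1 differed by 0.12 (adjusted p = 0.226) and Ifngr2 by -0.43 (adjusted p = 0.657), below the threshold in both cases. Ifnlr1, the other interferon lambda chain, did not pass the filter on low counts.

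Of 14 kinases and transcription factors tested, 10 rose and none fell (median 0.54). Irf7, which amplifies the type I response, had 208 and 201 in C6M9 and 218 and 196 in M9 interferon-high cells, against 38.7 and 42.5 in C6M9 and 30.5 and 27.9 in M9 remaining cells, a log2 difference of 2.57 ± 0.08 (SE, adjusted p = 1.79e-14). Stat2, a subunit of ISGF3, had 79.4 and 56.5 in C6M9 and 78.1 and 108 in M9 interferon-high cells, against 19.3 and 20.4 in C6M9 and 18.1 and 22.7 in M9 remaining cells, a log2 difference of 1.97 ± 0.10 (SE, adjusted p = 1.78e-11). Irf9 and Irf1 rose by less, 0.87 and 0.70 on the log2 scale. Each of these 4 genes was higher in interferon-high cells of all 4 libraries. Among 8 genes listed as feedback inhibitors 4 rose and none fell. The list includes the receptor gene Ifnar2, and the rise counted for it is the call described above. Socs1, which blocks JAK kinases, had 59.7 and 47.3 in C6M9 and 45.3 and 70.7 in M9 interferon-high cells, against 18.8 and 19.6 in C6M9 and 21.2 and 17 in M9 remaining cells, a log2 difference of 1.50 ± 0.12 (SE, adjusted p = 1.41e-08). Socs3 rose by 1.37 ± 0.20.

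Cell cycle genes ran the other way. All 42 S phase genes fell, with a median log2 difference of -0.86, and 46 of 52 G2 and M phase genes fell, with a median of -0.71. Uhrf1, which maintains DNA methylation at the replication fork, had 29.3 and 31.4 in C6M9 and 18.7 and 18.4 in M9 interferon-high cells, against 80.7 and 67 in C6M9 and 46.7 and 61.8 in M9 remaining cells, a log2 difference of -1.35 ± 0.09 (SE, adjusted p = 1.54e-09). Hist1h1b, a linker histone made in S phase, had 144 and 193 in C6M9 and 174 and 132 in M9 interferon-high cells, against 449 and 311 in C6M9 and 307 and 439 in M9 remaining cells, a log2 difference of -1.18 ± 0.12 (SE, adjusted p = 3.8e-07). Cdc6, which licenses replication origins, had 10.9 and 8.89 in C6M9 and 6.56 and 1.84 in M9 interferon-high cells, against 26.6 and 20.9 in C6M9 and 13.8 and 20.6 in M9 remaining cells, a log2 difference of -1.42 ± 0.18 (SE, adjusted p = 8.99e-06). Ccna2, cyclin A2, had 23.4 and 30.5 in C6M9 and 23.8 and 16 in M9 interferon-high cells, against 70.1 and 58.9 in C6M9 and 38.5 and 51.5 in M9 remaining cells, a log2 difference of -1.17 ± 0.12 (SE, adjusted p = 5.07e-07). Mki67, the proliferation marker, had 190.2 and 119.8 in C6M9 and 123 and 86.7 in M9 interferon-high cells, against 295 and 235 in C6M9 and 176 and 247 in M9 remaining cells, a log2 difference of -0.85 ± 0.10 (SE, adjusted p = 1.76e-06). All 4 remaining sums of Uhrf1, Hist1h1b and Ccna2 lay above all 4 interferon-high sums, whereas for Mki67 the C6M9 replicate 1 sum in interferon-high cells exceeded the M9 replicate 1 sum in the remaining cells. Hist1h1a (-1.42), Cdca7 (-1.30), Cenph (-1.28), Fignl1 (-1.25) and Ncapg2 (-1.21) were also among the largest falls on the log2 scale.

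By scanpy's cell cycle call 12.2% and 15.4% of interferon-high cells in C6M9 and 10.4% and 9.59% in M9 were in S or G2/M phase, against 27.6% and 27.7% in C6M9 and 18.8% and 21.6% in M9 among the remaining cells. When only cells called G1 were kept, 22 of 22 held-out interferon genes still rose (median 2.33) and all 21 MHC class I genes did (median 0.44). In those cells 1 of 38 S phase genes tested rose and 1 fell, and 0 of 38 G2 and M phase genes rose and 1 fell. The phase call was scored on these same S phase and G2 and M phase lists. Keeping G1 cells thus removes cells high in these genes, and neither the phase shares nor these counts are a separate check of their fall. Over all genes 897 of 10809 were called in that fit, 8.3%, with 703 higher (6.5%) and 194 lower (1.79%). The fall in cell cycle genes was as broad when cells were scored at 2000 UMIs each: 42 of 42 S phase genes and 45 of 52 G2 and M phase genes fell.

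Most growth genes and part of the TCR-induced genes were lower. Of 22 ribosome biogenesis and Myc growth genes 16 fell and 1 rose (median -0.47), and in G1 cells alone 6 fell and 1 rose (median -0.21). Srm, spermidine synthase, had 14.2 and 21.6 in C6M9 and 9.33 and 17.2 in M9 interferon-high cells, against 38.5 and 36 in C6M9 and 31.8 and 34.1 in M9 remaining cells, a log2 difference of -1.19 ± 0.13 (SE, adjusted p = 1.76e-06). Nolc1 and Gar1, which help to assemble ribosomal RNA particles, fell by -0.68 ± 0.08 and -0.65 ± 0.08. Galk1, galactokinase, fell by -1.19. Of 30 genes known to be induced by TCR signals 14 fell and 1 rose (median -0.21), and 7 lay above 0. With DESeq2 7 fell and 1 rose. Tnfrsf9, the costimulatory receptor 4-1BB, had 7.91 and 11.1 in C6M9 and 34.5 and 12.9 in M9 interferon-high cells, against 19 and 23.1 in C6M9 and 56.5 and 36 in M9 remaining cells, a log2 difference of -1.01 ± 0.12 (SE, adjusted p = 4.08e-06). Cd83, an activation marker, fell by -1.14 ± 0.21 and Il2ra, the high-affinity interleukin 2 receptor chain, by -1.77 ± 0.42. Il2ra did so at low levels, 0.33 and 1.27 in C6M9 and 1.04 and 0.615 in M9 interferon-high cells. In the remaining cells it had 2.62 and 2.4 in C6M9 and 2.64 and 4.68 in M9. Cd69, which type I interferon is also known to induce, was the gene of that list that rose, at 147 and 180.4 in C6M9 and 215 and 174 in M9 interferon-high cells, against 74.6 and 108 in C6M9 and 122 and 62.1 in M9 remaining cells, a log2 difference of 0.97 ± 0.08 (SE, adjusted p = 3.67e-08). In G1 cells alone 14 of the 30 fell and 1 rose (median -0.52). Of 20 glycolysis genes 7 fell and 2 rose (median -0.14), with Tpi1, an enzyme of the pathway, falling by -1.02 ± 0.10 and Pdk1, which restrains pyruvate oxidation, rising by 0.53 ± 0.09.

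Part of the naive and central memory list and part of the cytotoxic effector list were modestly higher. Of 19 genes on the naive and central memory list, 10 were higher and none lower (median 0.16). Il7r, the receptor chain for interleukin 7, had 430.5 and 300.5 in C6M9 and 146 and 184 in M9 interferon-high cells, against 285 and 261 in C6M9 and 116 and 138 in M9 remaining cells, a log2 difference of 0.39 ± 0.06 (SE, adjusted p = 5.6e-05), but in G1 cells alone its difference was 0.13 and the call was lost. In those cells 2 genes of the list rose and 1 fell. On the cytotoxic effector list without the filter genes Gzma and Gzmb, 10 of 23 were higher and 1 lower (median 0.26), and the count higher was 5 in G1 cells alone. Ccl5 had 611 and 411 in C6M9 and 170.0 and 274 in M9 interferon-high cells, against 294 and 206 in C6M9 and 103 and 144 in M9 remaining cells, a log2 difference of 0.93 ± 0.05 (SE, adjusted p = 1.25e-10). Klrk1, the receptor NKG2D, rose by 0.60 ± 0.06.

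Genes of the exhausted state showed no common direction. Of 18 progenitor exhausted genes 3 rose and 4 fell (median 0.00). Tcf7, the transcription factor of the progenitor state, differed by 0.04 (adjusted p = 0.581), Slamf6, a surface marker of that state, by 0.09 (adjusted p = 0.296), and Tox, a driver of exhaustion, by -0.03 (adjusted p = 0.766). The SEs of these differences were 0.04, 0.05 and 0.06. In G1 cells alone the signs of Tcf7 and Slamf6 were negative, at -0.10 and -0.04, and neither was called. Of 19 inhibitory receptor and exhaustion genes 4 rose and 1 fell (median 0.04), a share near the 22.2% of all genes called. Pdcd1, which encodes PD-1, had 30 and 32.7 in C6M9 and 47 and 44.3 in M9 interferon-high cells, against 25.5 and 23.1 in C6M9 and 41.7 and 31.8 in M9 remaining cells, a log2 difference of 0.33 ± 0.09 (SE, adjusted p = 0.0119). The Pdcd1 call was lost without C6M9 replicate 2 and when cells were scored at 2000 UMIs, where the difference was 0.07. Xcl1 and Cd200, both also on the TCR-induced list, fell by -0.55 ± 0.10 and -0.52 ± 0.08.

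Handling-related genes divided. Of 23 immediate early and dissociation stress genes 10 rose and 3 fell (median 0.25). Fos had 27 and 79.1 in C6M9 and 78.1 and 24.6 in M9 interferon-high cells, against 14.4 and 56.2 in C6M9 and 62.3 and 12.2 in M9 remaining cells, a log2 difference of 0.56 ± 0.10 (SE, adjusted p = 0.00026), so its level followed the library in both classes. The heat shock genes Hsp90aa1, Hspe1 and Hspa8 fell, by 0.46, 0.32 and 0.16 on the log2 scale. Of 19 cytokine receptor genes 6 rose and 1 fell, and Il2rg, the common gamma chain, had 338 and 348 in C6M9 and 341 and 362 in M9 interferon-high cells, against 227 and 266 in C6M9 and 232 and 223 in M9 remaining cells. Of 24 homing and adhesion genes 9 rose and none fell, with the integrin gene Itga4 at 0.54 ± 0.05.

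The number of interferon-high cells was compared between groups. They made up 6.77% (95% exact binomial interval 5.86 to 7.76) and 7.38% (6.17 to 8.75) of cells in C6M9 replicates 1 and 2, and 4.88% (4.24 to 5.58) and 6.13% (4.83 to 7.65) in M9 replicates 1 and 2. The means were 7.08 ± 0.436% in C6M9 and 5.5 ± 0.884% in M9 (SD, n = 2 each), a difference of 1.57 percentage points. Both C6M9 libraries lay above both M9 libraries, but the exact two-sided permutation test gave p = 0.333, the smallest value that 2 against 2 libraries allow. The intervals cover counting error only. Median depth was 13560 and 20346 UMIs per cell in C6M9 and 13187 and 19981 in M9, so replicate 2 was both the deeper library and the one with the higher share in each group. At 2000 UMIs per cell the shares were 6.66% and 7.54% in C6M9 and 4.87% and 6.24% in M9. With the held-out interferon genes as the score the order did not hold: the shares were 6.59% and 6.66% in C6M9 and 4.59% and 8.56% in M9, a difference of 0.0495 points (exact p = 1).

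**Figure D3:**
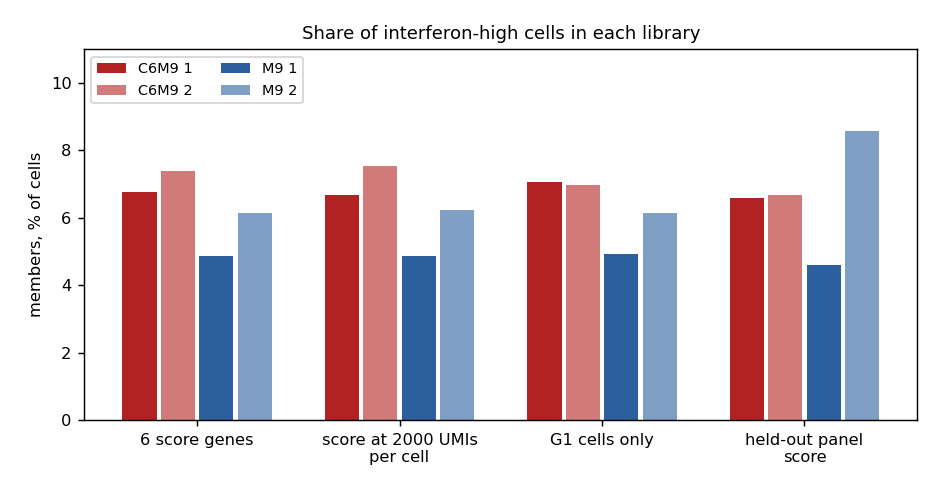
Share of interferon-high cells in each library, in percent of the cells kept, for the score as used, the score at 2000 UMIs per cell, G1 cells alone and a score over the held-out interferon genes (bars, C6M9 in red and M9 in blue; replicate 2 in the lighter shade). Both C6M9 libraries stand above both M9 libraries in each set but the last, where M9 replicate 2 is highest at 8.56%.

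Within interferon-high cells, C6M9 was compared with M9 over the affinity labels of the groups. Of 9492 genes tested 62 were called, 0.653%, with 14 higher (0.147%) and 48 lower (0.506%) in C6M9. The labels call the libraries of a group biological duplicates but do not say how its mice were divided between them, so p-values measure the spread between these libraries, which may be in part technical. In the remaining cells, which are far more numerous, 875 of 13426 genes were called, 6.52%.

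Of 18 genes on the naive and central memory list 2 were higher in C6M9 interferon-high cells, Il7r and Ly6c2, and 1 was lower (median 0.15). The lower one was Eomes, a T-box transcription factor of memory and effector CD8 T cells, at 121 and 107 CPM in C6M9 and 171 and 188 in M9, a log2 difference of -0.68 ± 0.13 (adjusted p = 0.0312). Il7r, the receptor chain for the survival cytokine interleukin 7, had 430.5 and 300.5 CPM in C6M9 and 146 and 184 in M9, a log2 difference of 1.12 ± 0.17 (adjusted p = 0.00749). Ccl5, a chemokine kept as ready message in memory CD8 T cells, had 611 and 411 CPM in C6M9 and 170.0 and 274 in M9, a log2 difference of 1.19 ± 0.21 (adjusted p = 0.0216). For both genes each C6M9 sum exceeded each M9 sum. Plac8, a small cysteine-rich protein gene, had 403 and 372 CPM in C6M9 and 193 and 250.3 in M9, a log2 difference of 0.79 ± 0.14 (adjusted p = 0.0216). Ly6c2, a surface marker of memory and effector T cells that interferon induces, had 786 and 822 CPM in C6M9 and 449 and 564 in M9, a log2 difference of 0.64 ± 0.13 (adjusted p = 0.0448). Tsc22d3, a glucocorticoid-induced regulator known as GILZ, had 50.8 and 50.8 CPM in C6M9 and 27.6 and 25.8 in M9, a log2 difference of 0.89 ± 0.17 (adjusted p = 0.0336), and the small GTPase gene Rras2 had 32.6 and 31.1 CPM in C6M9 and 14.5 and 14.8 in M9, a log2 difference of 1.10 ± 0.21 (adjusted p = 0.0343). Dnajc15, which encodes a mitochondrial co-chaperone, had 522 and 478 CPM in C6M9 and 307 and 268 in M9, a log2 difference of 0.77 ± 0.12 (adjusted p = 0.00749). Dynll1 (0.63), Arl4c (0.61) and Klrd1 (0.58), the gene of CD94, completed the 10 rises that met the rule for naming. The calls of Dynll1, Arl4c, Klrd1 and Tsc22d3 were lost without either C6M9 library, that of Rras2 without C6M9 replicate 1 and that of Ly6c2 without C6M9 replicate 2.

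Among genes that averaged at least 20 CPM in M9 interferon-high cells, the largest fall in C6M9 was that of Izumo1r, which encodes folate receptor 4, a protein known from regulatory and anergic T cells, at 16.5 and 17.1 CPM in C6M9 and 100.2 and 70.1 in M9, a log2 difference of -2.39 ± 0.19 (adjusted p = 4.2e-05). Cd22, an inhibitory lectin best known from B cells, had 12.5 and 13.7 CPM in C6M9 and 71.5 and 58.4 in M9, a log2 difference of -2.35 ± 0.19 (adjusted p = 4.2e-05). Sox4, a transcription factor, had 9.56 and 10.8 CPM in C6M9 and 49.4 and 24 in M9, a log2 difference of -1.94 ± 0.30 (adjusted p = 0.00749), and the log2 difference was -1.28 without M9 replicate 1. Cd200, an inhibitory ligand, had 22.7 and 31.8 CPM in C6M9 and 103 and 64.6 in M9, a log2 difference of -1.68 ± 0.21 (adjusted p = 0.00244). Xcl1, the chemokine that draws cross-presenting dendritic cells, had 28.4 and 19.4 CPM in C6M9 and 84.3 and 60.9 in M9, a log2 difference of -1.66 ± 0.20 (adjusted p = 0.00234). Il10ra, the interleukin 10 receptor chain, had 36.6 and 44.8 CPM in C6M9 and 113 and 90.4 in M9, a log2 difference of -1.36 ± 0.16 (adjusted p = 0.00153). In each of these genes both C6M9 sums lay below both M9 sums. Gpm6b (-2.37), Gcnt1 (-1.60), Alcam (-1.59) and Klrb1f (-1.51) fell as well. Nrgn, which encodes a calmodulin-binding protein, had 14.5 and 12.1 CPM in C6M9 and 77 and 21.5 in M9, a log2 difference of -2.02 ± 0.39 (adjusted p = 0.0368). That value rests on M9 replicate 1, without which the difference was -0.74 and the call was lost.

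Of the progenitor and exhaustion genes, Slamf6 had 291 and 291 CPM in C6M9 and 462 and 534 in M9, a log2 difference of -0.80 ± 0.12 (adjusted p = 0.00749). Tox had 74.2 and 96.3 CPM in C6M9 and 189 and 174 in M9, a log2 difference of -1.12 ± 0.14 (adjusted p = 0.00244). Pdcd1 had 30 and 32.7 CPM in C6M9 and 47 and 44.3 in M9, a log2 difference of -0.57 ± 0.17 (adjusted p = 0.193), and Tcf7 had 542 and 531 CPM in C6M9 and 470.5 and 499 in M9, a log2 difference of 0.12 ± 0.11 (adjusted p = 0.766). Of 18 progenitor exhausted genes 1 rose and 4 fell (median -0.50), of 15 inhibitory receptor and exhaustion genes 2 fell, Tox and Lag3 (median -0.67), and of 27 TCR-induced genes 5 fell, Egr2, Tnfrsf4, Tnfsf4, Xcl1 and Cd200 (median -0.46). Over all genes tested the median was -0.01. Neither edgeR nor DESeq2 called any of 42 S phase and 52 G2 and M phase genes, of which 4 and 14 had an unadjusted p under 0.05 in edgeR, against 10.6% of all genes tested, with medians of 0.18 and 0.32. These 2 medians depended on how the cells were chosen. They were -0.20 and 0.02 when cells were scored at 2000 UMIs, and 0.001 and 0.045 with the top 6% of each library. All 21 genes reported here that met the rule for size lay on the same side of 0 in the remaining cells, where the log2 difference of Izumo1r was -2.25, of Cd22 -2.02, of Il7r 1.10, of Slamf6 -0.80 and of Tox -1.05. The values for both classes come from the same 4 libraries.

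**Figure D4:**
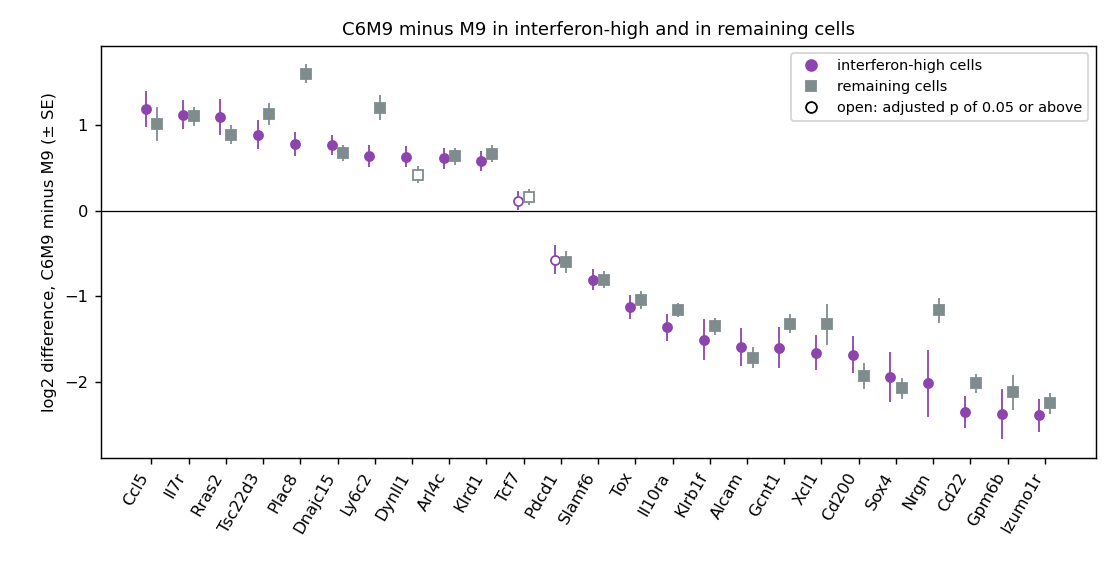
Log2 difference, C6M9 minus M9 (± SE), of the named genes in interferon-high cells (purple circles) and in the remaining cells (grey squares), filled where the adjusted p was under 0.05. Differences in interferon-high cells span 1.19 for Ccl5 to -2.39 for Izumo1r, and those of Plac8 and Ly6c2 are larger in the remaining cells.

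The level of the interferon genes within the class was read from the 22 held-out interferon genes, since the 6 score genes set the class. In interferon-high cells edgeR called none of them between groups, with 11 at an unadjusted p under 0.05, against 10.6% of all genes tested, and DESeq2 called 1, lower in C6M9. A difference above 0 was found for 1 of 22 and the median was -0.24. With the top 6% of each library taken in place of a shared cut, the median was -0.01 and 3 of the 22 had an unadjusted p under 0.05, against 8.77% of all genes. Outside the 22, Cxcl10 was called lower in C6M9 interferon-high cells with the shared cut. It had 53.4 and 35.6 CPM in C6M9 and 80.8 and 107 in M9, a log2 difference of -1.09 ± 0.20 (edgeR, adjusted p = 0.0239). Ly6c2, which interferon also induces, was called higher. Summed, the 22 genes reached 7022 and 7067 CPM in C6M9 and 8458 and 9361 in M9. In the remaining cells the sums were 2303 and 2408 in C6M9 and 2452 and 2634 in M9, whereas 8 of the 22 genes rose in C6M9 there and the median difference was 0.37, so the sum and the median differ in sign. Over bins of the score the held-out genes climbed in every library: the cells with a score of 0 had 1613 and 1570 CPM in C6M9 and 1927 and 1814 in M9, and the cells above 1.5 had 9610 and 11278 in C6M9 and 11884 and 12188 in M9. In each of the 7 bins both M9 libraries stood above both C6M9 libraries. Ifi27l2a, an interferon-induced gene and the most abundant of the 22, carries much of these sums. Without it both M9 libraries stood above both C6M9 libraries in 4 bins, and both C6M9 libraries above both M9 libraries in the 2 bins with the lowest scores. The sums without it were 4215 and 4058 in C6M9 and 4636 and 5197 in M9 interferon-high cells, against 1072 and 1139 in C6M9 and 906 and 1043 in M9 remaining cells. Just above and just below the cut the level was 5640 and 5320.

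**Figure D5:**
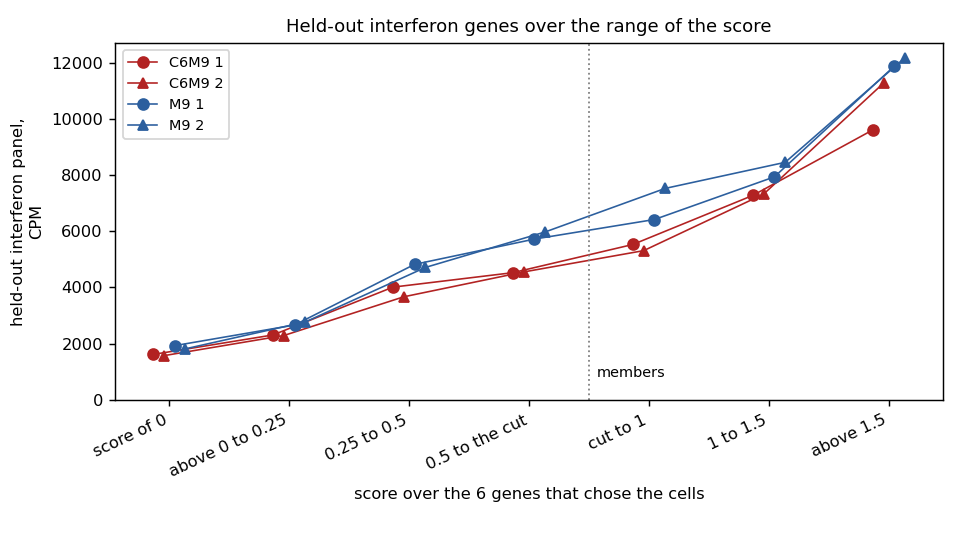
Summed level of 22 held-out interferon genes in CPM (no TMM factor) over 7 bins of the score that chose the cells, one line per library (C6M9 in red, M9 in blue); bins right of the dotted line are interferon-high. Levels climb from 1613, 1570, 1927 and 1814 at a score of 0 to 9610, 11278, 11884 and 12188 above 1.5, with M9 above C6M9 in each bin, an order that holds in 4 bins without Ifi27l2a.

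Whether the C6M9 minus M9 difference was itself unlike in the classes was tested as an interaction over all 8 sums. Of 11704 genes 23 were called, 0.197%, with 1 higher (0.00854%) and 22 lower (0.188%). Of the 22, 4 are score genes (Usp18, Ifit1, Ifit3 and Ifit3b), which chose the cells, and are not read further. Plac8 had a log2 difference of 0.79 in interferon-high cells and 1.60 in the remaining cells, an interaction of -0.79 ± 0.11 (adjusted p = 0.00157). Slfn1, a Schlafen gene, had 392 and 349 CPM in C6M9 and 444 and 471 in M9 interferon-high cells, against 122 and 116 in C6M9 and 81.6 and 90 in M9 remaining cells, with an interaction of -0.78 ± 0.10 (adjusted p = 0.00157). Slfn5 had 370.2 and 377 CPM in C6M9 and 452 and 480.4 in M9 interferon-high cells, against 33.9 and 36.4 in C6M9 and 24.9 and 30.2 in M9 remaining cells, with an interaction of -0.68 ± 0.11 (adjusted p = 0.00812). Ly6a, the surface protein Sca-1, had 329.6 and 229 CPM in C6M9 and 246 and 274 in M9 interferon-high cells, against 120.1 and 113 in C6M9 and 60.7 and 66.8 in M9 remaining cells, with an interaction of -0.79 ± 0.13 (adjusted p = 0.00871). Jaml, an adhesion molecule, had 330.3 and 285 CPM in C6M9 and 237 and 300.2 in M9 interferon-high cells, against 126 and 118 in C6M9 and 59.5 and 69 in M9 remaining cells, with an interaction of -0.72 ± 0.11 (adjusted p = 0.00361). In the remaining cells these genes were higher in both C6M9 libraries, and in the interferon-high cells the groups were closer or M9 was higher. Of the 22 held-out interferon genes 7 were called, all lower, and their median was -0.52.

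A cut shared by all libraries sets the same lowest score for interferon-high cells in both groups, and the part of that in these calls was not tested. Their median scores were 1.20 and 1.15 in C6M9 and 1.21 and 1.28 in M9. With the top 6% of each library taken instead, edgeR called 5 genes and none of the 22 held-out genes, with 12 of these at an unadjusted p under 0.05, against 4.73% of all genes. Without C6M9 replicate 2 there were 3 calls, and with likely doublets left out 11.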

How the data were processed

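The authors deposited UMI counts, not normalized, for 4 libraries, 2 per group. They hold 11113 barcodes, with 73379913 and 65721043 UMIs in C6M9 and 79174627 and 33680632 in M9. Reads were handled with Cell Ranger 6.0.0 and the mm10 build, per the submitters' processing notes; the annotation release is not given in the sources used here. Libraries were 10x Genomics 3′ libraries, per the labels' protocols.

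Filters left 9770 cells: 10324 passed depth and mitochondrial share, 150 were set aside for B cell UMIs and 404 for granzyme UMIs. The members and all gene lists were chosen with earlier results of these data known. Scrublet in scanpy 1.11.5 marked under 0.5% of cells in every library and was not relied on; leaving out the top 0.8% of doublet scores per 1000 barcodes was an alternative. Raw UMIs were summed per library for interferon-high and remaining cells and fitted in edgeR 4.0.16 (R 4.3.3; TMM factors, low-count filter, quasi-likelihood test, Benjamini-Hochberg threshold 0.05). The fits were tested on simulated data. Named genes were the 12 largest called rises and falls with the groups apart in all libraries and 20 CPM in the higher group. Genes of a fixed core and the largest of each list were added. For the interaction all calls outside the score were named, with neither of these conditions applied. Genes that spell out a count of 5 or fewer were chosen after their values were seen. TCR, immunoglobulin, sex-linked and unnamed genes were not named, and a few further genes are not reported here. Alternatives were RLE size factors, no low-count filter, DESeq2 1.42.0, each library left out, replicate or library block, other cuts and scores, 2000 UMIs per cell, and G1 cells alone. Promoter sequences came from RefSeq (GRCm38.p6). Genes without a row in the files, among them Mx1, Mx2, Oas1b, Cxcl11, Mnda and Gbp11, were not analysed here.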

Additional observations from a re-analysis of the deposited data

Results flagged for a closer look

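For 19 genes outside the score the C6M9 minus M9 log2 difference was unlike in interferon-high and remaining cells by the interaction test (edgeR, adjusted p under 0.05), and 18 of them had the lower difference in interferon-high cells. The differences of the differences were -0.79 for Plac8, -0.79 for Ly6a, -0.78 for S100a6, -0.78 for Slfn1, -0.72 for Jaml and -0.72 for Ifit1bl1. Slfn5 had -0.68, Rtp4 -0.65, Ifi208 -0.64, Phf11b -0.63 and Ddx58 -0.62. Xaf1 had -0.57, Rnf213 -0.56, Zbp1 -0.56, Samhd1 -0.55, Ly6c2 -0.55, Daxx -0.54 and Lgals1 -0.36. The pseudogene Olfr1369-ps1 had 2.73, which changed sign when the top 10% of cells were taken. Calls numbered 591 at an unadjusted p under 0.05, 5.05% of the genes tested. Many of the 18 are interferon-induced like the score genes, and 1 cut on the score was shared by both groups. With the top 6% of each library taken instead, edgeR called 5 genes and none of the 22 held-out genes. The part of the shared cut in these calls was not tested. Lgals1 encodes galectin 1 and S100a6 a calcium-binding protein; both are on the cytotoxic effector list.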

How the results depend on the processing

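Of 62 genes called between groups in interferon-high cells, the count was 209 with no filter on low counts, 39 with DESeq2, 11 for the top 3% of cells, 94 with likely doublets left out, 147 in G1 cells alone and 38 with the held-out panel as the score, and 58 to 353 when a library was left out. In the remaining cells the count of 875 became 1912 with no filter, 1000 with DESeq2 and 303 to 1547 without a library. For interferon-high against remaining cells 2603 calls became 1231 with no library block, 897 in G1 cells, 1986 with DESeq2 and 1690 to 2265 without a library. The 23 interaction calls became 56 with no filter, 98 for the top 10%, 80 when scored at 2000 UMIs, 61 by the number of score genes seen at that depth, 11 with doublets left out, 67 in G1 cells and 5 for the top 6% of each library, and 3 to 54 without a library. The cause of these shifts was not tested. The share difference of 1.57 points ran from 0.946 to 2.2 without a library.

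Signs changed for genes that were not called: between cell classes Tox was 0.021 without C6M9 replicate 1 and -0.066 without M9 replicate 1 (its range), Ifng was -0.044 for the top 3% and -0.18 with the held-out panel, and Slamf6 was -0.049 for the top 10% and -0.041 in G1 cells. Tcf7 was -0.10 in G1 cells. Called genes that changed sign and lost the call were Mki67, at 0.10 in G1 cells, and the interaction of Olfr1369-ps1, at -0.12 for the top 10%.

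The replicate numbers were not used as pairs in the main fits. Over genes, the log difference of replicate 1 minus replicate 2 in C6M9 was correlated with that in M9. The correlation was -0.03 in interferon-high cells and -0.10 in remaining cells. With the replicate block 102 genes were called in interferon-high cells and 694 in the remaining cells. With the numbers crossed, chosen after seeing the data along with the held-out panel score, the counts were 116 and 1640. Depth limits the interferon-high sums, whose smallest library held 73 cells and 1570827 UMIs.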
